A study of Mus musculus with 7 samples.

Results

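The 8 genes described are Trp53, which encodes the transcription factor p53, and 7 genes of its pathway: Mdm2, Cdkn1a, Ccng1, Bbc3, Phlda3, Trp53inp1 and Sesn2. They were chosen by name, by a rule that uses no measured value but with earlier results of these data known, and are 8 of 22556 genes counted. They were measured by ChrRNA-seq, the sequencing of RNA that stays bound to chromatin and is therefore rich in unspliced, nascent transcripts, in 7 samples of undifferentiated female mouse embryonic stem cells (mESCs) of a Dom/129S x Cast cross, so that fragments over a known base difference can be given to the Dom or the Cast copy of a gene. In the 4 samples of iXist-ChrX-Dom a doxycycline-inducible TetOn promoter replaced the Xist promoter on the Dom X chromosome, and in the 3 of iXist-ChrX-Cast the same change was made on the Cast X chromosome. All 7 samples were treated with 1 µg/mL doxycycline for 10 days, in serum and LIF on inactivated SNLP fibroblast feeders that were depleted by pre-plating before harvest. Each line is 1 clone by the study's account, and no uninduced sample and no cells with altered p53 were analysed here. The study describes the samples of iXist-ChrX-Dom as replicate experiments and those of iXist-ChrX-Cast as replicates, without saying whether cultures were separate, so that p-values measure only the spread between these samples, which may be technical.

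In an unstressed cell p53 is made continuously and is destroyed just as continuously, because MDM2, itself the product of a p53 target gene, marks it for the proteasome. Damage, ribosomal stress or other insults stabilise p53, which then binds a paired sequence element at its target genes and raises their transcription. The best known outputs are a cell cycle arrest through p21 (Cdkn1a) and cell death through PUMA (Bbc3), and mouse ES cells, which lack a firm G1 checkpoint, are known for a high level of p53. Chromosome gains are common in cultured ES cells, and loss or gain of whole chromosomes is one of the states in which the p53 pathway has been studied.

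The sequence p53 binds is a pair of half-sites of 10 bases each, and the promoter windows of the genes are shown first because they differ in how closely they carry it. RefSeq promoter windows (build GRCm38.p6, from 250 bases before to 50 bases after an annotated start) were found for 7 of the 8 genes, in 10 windows; Trp53inp1 had no entry. A half-site matching the p53 consensus at all 10 bases lay in 4 of the 10 windows, against 8.36% of the 32851 windows of all genes, and the core CATG lay in 3 of 10, against 61.1%. The consensus and CATG each read the same on both strands, and CATG can lie within a half-site. Capitals mark a half-site that matches at all 10 bases or a pair of adjacent half-sites that matches at 17 or more of 20 bases, each printed 5′ to 3′ on the strand of its gene. The 300-base windows of Cdkn1a (chr17:29090729-29091028, plus strand) and Ccng1 (chr11:40755237-40755536, minus strand) are given whole, since these hold the closest matches:
Cdkn1a: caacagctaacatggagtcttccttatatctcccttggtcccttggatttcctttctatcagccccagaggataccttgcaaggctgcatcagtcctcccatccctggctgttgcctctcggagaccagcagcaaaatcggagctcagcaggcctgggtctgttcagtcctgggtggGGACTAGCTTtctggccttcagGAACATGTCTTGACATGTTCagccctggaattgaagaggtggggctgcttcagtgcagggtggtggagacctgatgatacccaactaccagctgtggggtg
Ccng1: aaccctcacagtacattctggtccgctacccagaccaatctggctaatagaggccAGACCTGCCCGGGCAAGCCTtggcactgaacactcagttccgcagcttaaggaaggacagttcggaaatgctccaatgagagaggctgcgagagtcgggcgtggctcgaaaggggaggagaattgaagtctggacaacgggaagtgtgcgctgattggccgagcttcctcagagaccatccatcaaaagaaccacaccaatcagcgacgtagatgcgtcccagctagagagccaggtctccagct
Each of these windows held an adjacent pair that matched at 19 of 20 bases, a match found in 0.0883% of all windows (29 of 32851). In Cdkn1a the pair began 51 bases before the first of its 2 annotated start sites and ended 2822 bases before the second, with another half-site 12 bases upstream of the pair; the window of the second start held no half-site. In Ccng1 the pair began 195 bases before the start. Stretches of 20 bases on either side of the capitals show the next closest matches:
Bbc3: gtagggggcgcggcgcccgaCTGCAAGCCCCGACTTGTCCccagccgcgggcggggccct
Trp53: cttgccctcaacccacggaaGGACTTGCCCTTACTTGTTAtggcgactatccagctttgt
Mdm2: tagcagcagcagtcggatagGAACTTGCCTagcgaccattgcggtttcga
The Bbc3 stretch (chr7:16309466-16309525, plus strand) and the Trp53 stretch (chr11:69580264-69580323, plus strand) each held an adjacent pair matching at 17 of 20 bases, as 6.29% of all windows did. The Mdm2 stretch (chr10:117710915-117710964, minus strand) held a half-site with no close partner. Phlda3 and Sesn2 held no half-site in their windows. A match of letters is a description and not a site of binding, and no match says only that the letters are not in this window; binding of p53 was not measured.

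The libraries held 14877384 to 24309806 fragments on genes, of which 44.2% to 46.4% could be given to an allele. Xist, which reports on the induction, was at 5319 to 7045 CPM (fragments scaled by library size and TMM factor, the unit of level used throughout) in the 7 samples. Of 10 ES cell markers all were detected in every sample, with a summed level of 1625 to 1970 CPM for iXist-ChrX-Dom against 1861 to 2060 CPM for iXist-ChrX-Cast. The 14 fibroblast markers summed to 856 to 1131 CPM and 1031 to 1147 CPM, most of it Fn1 (720.4 to 1027 CPM over the 7 samples). Thy1 stayed at 0.813 to 1.62 CPM and Lum at 0 to 0.204 CPM. The rest of the sum came from the markers not named here. Median Cast shares furthest from the 46.3% to 46.9% of the balanced autosomes (those other than 1, 5, 8, 12 and 14) were seen on chromosome 8 in iXist-ChrX-Dom (63.5%), on chromosome 5 in iXist-ChrX-Cast (63.6%) and on chromosome 12 in both (61.2% and 61.6%), which is the sense in which the cells are called aneuploid here; DNA copy number was not measured. Smaller departures were seen in iXist-ChrX-Cast on chromosome 14 (52.4%) and on chromosome 1 (43.6%), where Phlda3 lies. None of the other genes of the 8 lies on these 5 chromosomes. Chromosome 11, with Trp53 and Ccng1, was kept among the balanced autosomes. Its median log2 fold change in total fragments was 0.17 (iXist-ChrX-Dom minus iXist-ChrX-Cast). A Cast share cannot show a change of both copies alike. Replicates 1 and 2 differ from replicates 3 and 4 at 30.3% of 15186 genes, and are called the first and second set. For replicates 3 and 4 of iXist-ChrX-Dom the description reads d1 where title and treatment read 10 days, and the latter was used. The clone name on the counts of iXist-ChrX-Cast replicates 1 and 2 differs by 1 character from their labels, and the labels were used.

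All 8 genes were transcribed in all 7 samples, but at levels that differed widely. Counts fall over the whole transcript, introns included, so levels of different genes were compared as CPM per kilobase of transcript. Ccng1, a cyclin-like protein that works with a phosphatase on MDM2, was the highest at 58.6 ± 5.89 (SD, n = 7), above 99.6% of the genes tested. Trp53inp1, which promotes p53 phosphorylation and autophagy, followed at 25.5 ± 1.94 CPM per kilobase. Mdm2 (9.05 ± 0.537 CPM per kilobase) and Trp53 (8.81 ± 0.798) came next and could not be ordered, since Mdm2 was the higher in only 4 of 7 samples. Phlda3, an inhibitor of AKT that competes for membrane lipids, was at 3.59 ± 0.506 CPM per kilobase. Sesn2, a stress protein that restrains mTORC1, was at 2.4 ± 0.230 CPM per kilobase and Cdkn1a, the p21 inhibitor of cyclin-dependent kinases, at 2.20 ± 0.393; Sesn2 was above Cdkn1a in 6 of 7 samples. Bbc3, the death-promoting BH3-only protein PUMA, was the lowest at 0.342 ± 0.108 CPM per kilobase, with 34.1% of tested genes below it. Apart from the 2 close pairs, each gene stood above the next in all 7 samples. Ccng1 and Cdkn1a, with the closest promoter pairs, stood first and seventh in this order, and a relation of level to promoter match was not tested.

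The question of whether the 2 lines, which differ in their uneven chromosomes, also differ in the p53 pathway was asked of total fragments with edgeR's quasi-likelihood test over 15186 genes. No gene of the 8 passed an adjusted p of 0.05, where 2.92% of all genes did, and none had an unadjusted p under 0.05, where 17.4% of all genes did; DESeq2 gave 0 of 8 by both measures. In none of the 8 did the levels of the lines separate without overlap, as they did at 16.0% of all genes. The median log2 fold change (iXist-ChrX-Dom minus iXist-ChrX-Cast) was -0.032 over the 8 and -0.0028 over all genes, and 4 genes had values above 0 and 4 below.

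**Figure D1:**
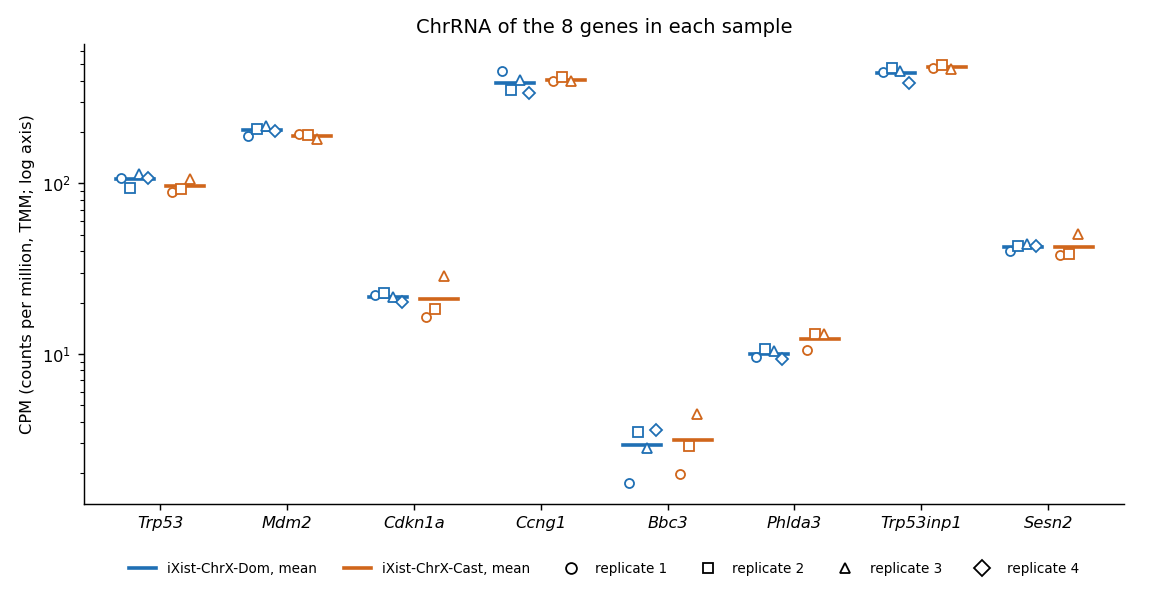
CPM of each gene (log axis) in each sample, with iXist-ChrX-Dom in blue and iXist-ChrX-Cast in orange, symbols for the replicate number and a bar at the mean of the line. The lines overlap for all 8 genes, and the triangle of iXist-ChrX-Cast replicate 3 stands above every other sample for Cdkn1a (28.5 CPM), Bbc3 (4.46 CPM) and Sesn2 (50.1 CPM).

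The regulator pair came first. Trp53 (chr11:69580358-69591873, mm10) was at 108, 94.3, 113 and 108 CPM in iXist-ChrX-Dom replicates 1 to 4 and at 89.3, 92.6 and 106 CPM in iXist-ChrX-Cast replicates 1 to 3. The lowest sample of the first line lay within the range of the second, and the log2 fold change was 0.14 (95% interval -0.10 to 0.37, edgeR adjusted p = 0.555). Mdm2 (chr10:117688874-117710758), the ubiquitin ligase that turns p53 over, was at 189.6, 209, 217 and 201 CPM against 195, 193 and 182 CPM. Its samples lay within a 1.19-fold range, the narrowest of the 8 genes, and the fold change was 0.10 on the log2 scale (-0.10 to 0.30, adjusted p = 0.623). For this feedback pair the upper bounds of the intervals were 1.30-fold and 1.23-fold in favour of iXist-ChrX-Dom.

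The genes of cell cycle control differed more between samples than between lines. Cdkn1a (chr17:29090985-29100722) was at 22.1, 22.8, 21.4 and 20.1 CPM in iXist-ChrX-Dom and at 16.5, 18.4 and 28.5 CPM in iXist-ChrX-Cast. The first line was tight, while the second held both the 2 lowest samples and the highest. Its log2 fold change of 0.03 (-0.37 to 0.44, adjusted p = 0.959) therefore rests on single samples of iXist-ChrX-Cast: it was 0.31 (adjusted p = 0.183) without replicate 3, and turned to -0.11 and -0.06 without replicates 1 and 2 (adjusted p = 0.821 and 0.969). Ccng1 (chr11:40748551-40755286) was at 455, 353, 403 and 338 CPM against 399, 421 and 396 CPM. Here the spread lay in iXist-ChrX-Dom, whose samples were on both sides of the other line, and the log2 fold change was -0.07 (-0.33 to 0.20, adjusted p = 0.840).

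The genes of cell death and survival signalling had the lowest level and the largest difference of the 8, in different genes. Bbc3 (chr7:16309582-16318334) was at 1.75, 3.50, 2.83 and 3.57 CPM against 1.97, 2.91 and 4.46 CPM, from 28 to 89 fragments a sample. Replicate 1 was the lowest of each line, and the interval of the log2 fold change of -0.11 ran from -0.82 to 0.60 (adjusted p = 0.904), or from 0.566-fold to 1.51-fold. Phlda3 (chr1:135766084-135769134) was at 9.56, 10.7, 10.3 and 9.39 CPM against 10.6, 13.1 and 13.1 CPM. One sample of iXist-ChrX-Cast fell among those of iXist-ChrX-Dom and the others stood above them all. Its log2 fold change of -0.30 (-0.62 to 0.02) was the largest of the 8 and did not pass the test (unadjusted p = 0.0668, adjusted p = 0.324).

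The genes of autophagy and nutrient sensing did not pass either. Trp53inp1 (chr4:11156440-11174377) was at 449, 475, 452 and 387 CPM against 477, 494 and 468 CPM. In iXist-ChrX-Dom replicate 2 lay among the samples of the other line and the other 3 stood below them, and the log2 fold change was -0.12 (-0.34 to 0.10, adjusted p = 0.591). Sesn2 (chr4:132492806-132510456) was at 40.2, 42.7, 43.8 and 42.8 CPM against 38.2, 38.6 and 50.1 CPM. As for Cdkn1a, the samples of iXist-ChrX-Cast lay on both sides of the other line, and the fold change was 0.00 on the log2 scale (-0.27 to 0.27, adjusted p = 0.999).

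**Figure D2:**
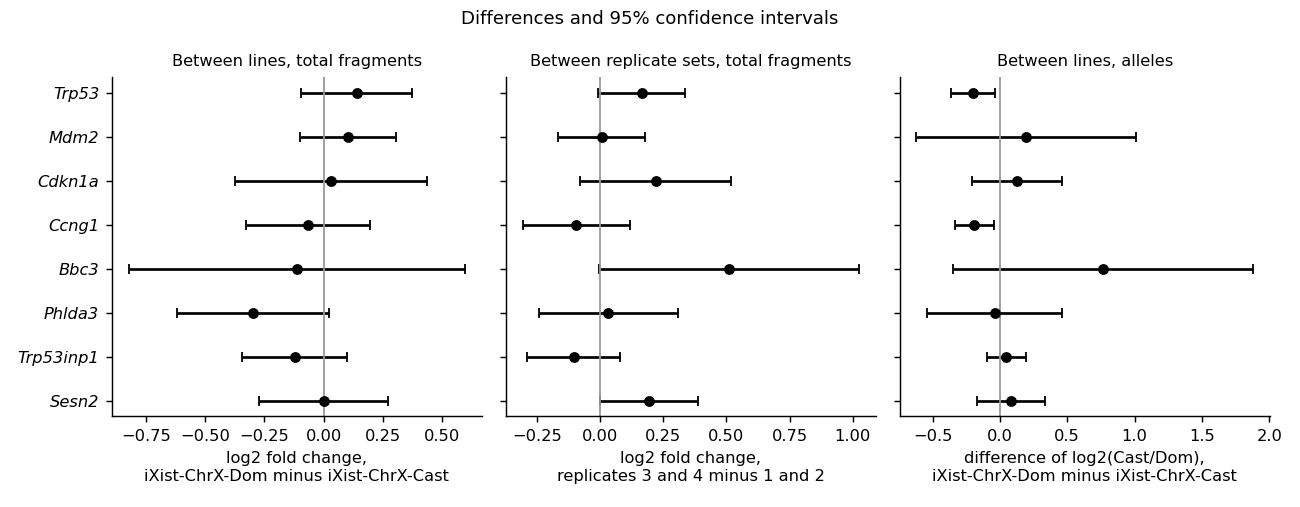
Log2 differences (points) with 95% confidence intervals (bars) of the 8 genes between the lines, between the second and first set of replicates, and between the lines in the log2 ratio of Cast to Dom fragments. All intervals of total fragments cross 0, and among allelic ratios those of Trp53 (-0.36 to -0.04) and Ccng1 (-0.33 to -0.05) do not.

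Between the second set (replicates 3 and 4) and the first, with the line in the fit, none of the 8 genes passed either, against 30.3% of all genes, and none had an unadjusted p under 0.05, against 41.9%; DESeq2 gave 0 by both measures. Bbc3 had the largest log2 fold change, 0.51 (-0.01 to 1.02, edgeR adjusted p = 0.123), and it was 0.85 (adjusted p = 0.0104) without iXist-ChrX-Dom replicate 2. Cdkn1a (0.22, -0.08 to 0.52), Sesn2 (0.19, -0.0024 to 0.39) and Trp53 (0.16, -0.01 to 0.34) were also above 0 without passing, and Cdkn1a turned to -0.11 (adjusted p = 0.601) without iXist-ChrX-Cast replicate 3. Mdm2 was at 0.01 (-0.17 to 0.18), Phlda3 at 0.03, Ccng1 at -0.09 and Trp53inp1 at -0.10. Within the first set the mean level of Cdkn1a was 22.4 CPM in iXist-ChrX-Dom and 17.4 CPM in iXist-ChrX-Cast, and within the second it was 20.8 CPM and 28.5 CPM. Sesn2 turned in the same way, with 41.5 and 38.4 CPM in the first set and 43.3 and 50.1 CPM in the second. The difference of the set effect between the lines, added after the data were seen, was -0.82 for Cdkn1a (-1.25 to -0.38, unadjusted p = 0.00103, adjusted p = 0.268) and -0.32 for Sesn2 (adjusted p = 0.545). That term called 2 of 15186 genes (0.0132%), neither of them among the 8, and the second set holds only 1 sample of iXist-ChrX-Cast.

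The levels of the 8 genes were also compared with each other across the samples. As a description over 7 samples of 2 lines and 2 sets, Pearson's r of log2 CPM was 0.90 between Cdkn1a and Sesn2 and 0.77 between Bbc3 and Sesn2, both with iXist-ChrX-Cast replicate 3 as the highest sample. It was 0.68 between Phlda3 and Trp53inp1, 0.61 between Cdkn1a and Bbc3 and -0.63 between Ccng1 and Bbc3. It was 0.55 between Trp53 and Cdkn1a, 0.15 between Trp53 and Mdm2 and -0.61 between Trp53 and Trp53inp1. Among 10716 other genes with a mean of at least 5 CPM, those most like Trp53 were Polr2a (r = 0.99), Cyp2s1 (0.98) and Ccdc124 (0.97). Those most like Cdkn1a were Ptcd2 (r = 0.98), Rnf167 (0.97) and Ints5 (0.97). An r of at least 0.9 was reached by 104 of the 10716 genes with Trp53 and by 36 with Cdkn1a, so such values are not particular to those named. Of the genes named for Trp53, Polr2a lies on chromosome 11, as Trp53 does.

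The allelic fragments ask whether the Cast and Dom copies of these autosomal genes were used alike in the lines. A difference was tested with limma on log2((Cast + 0.5)/(Dom + 0.5)) at 12932 genes. None of the 8 passed, against 16.5% of all genes, although 2 had an unadjusted p under 0.05, against 24.2%, and the lines did not overlap at the same 2, against 23.1%. These were Trp53 and Ccng1.

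The Cast share of Trp53 was 49.4%, 48.5%, 50.3% and 51.4% in iXist-ChrX-Dom and 53.3%, 53.2% and 53.6% in iXist-ChrX-Cast, from 683 to 1196 allelic fragments a sample. All samples of the second line stood above all of the first, by a mean of 53.4% ± 0.203 (SD, n = 3) against 49.9% ± 1.24 (SD, n = 4). On the log2 ratio the difference was -0.20 (-0.36 to -0.04, limma adjusted p = 0.105). Neither copy alone separated the lines: the Dom copy was at 22.1 to 29.6 CPM and 22.4 to 23.5 CPM, and the Cast copy of the second line, at 25.6 to 27.2 CPM, lay inside its range in the first.

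The Cast share of Ccng1 was 41.1%, 39.2%, 40.3% and 42.6% in iXist-ChrX-Dom and 46.3%, 42.6% and 43.1% in iXist-ChrX-Cast, from 3050 to 5056 allelic fragments. The lines all but touched, and the mean of 40.8% ± 1.41 (SD, n = 4) stood below 44.0% ± 2.02 (SD, n = 3). The difference on the log2 ratio was -0.19 (-0.33 to -0.05, limma adjusted p = 0.0748). With the replicate number as a block, a fit to which iXist-ChrX-Dom replicate 4 adds nothing, since no other sample bears its number, it was -0.22 and passed (limma adjusted p = 0.0182, with 16.0% of all genes called); it also passed without iXist-ChrX-Dom replicate 4 (adjusted p = 0.0467) and with edgeR on the allelic counts (-0.19, adjusted p = 0.0497). Without iXist-ChrX-Cast replicate 1, the highest sample, it was -0.12 (adjusted p = 0.359).

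**Figure D3:**
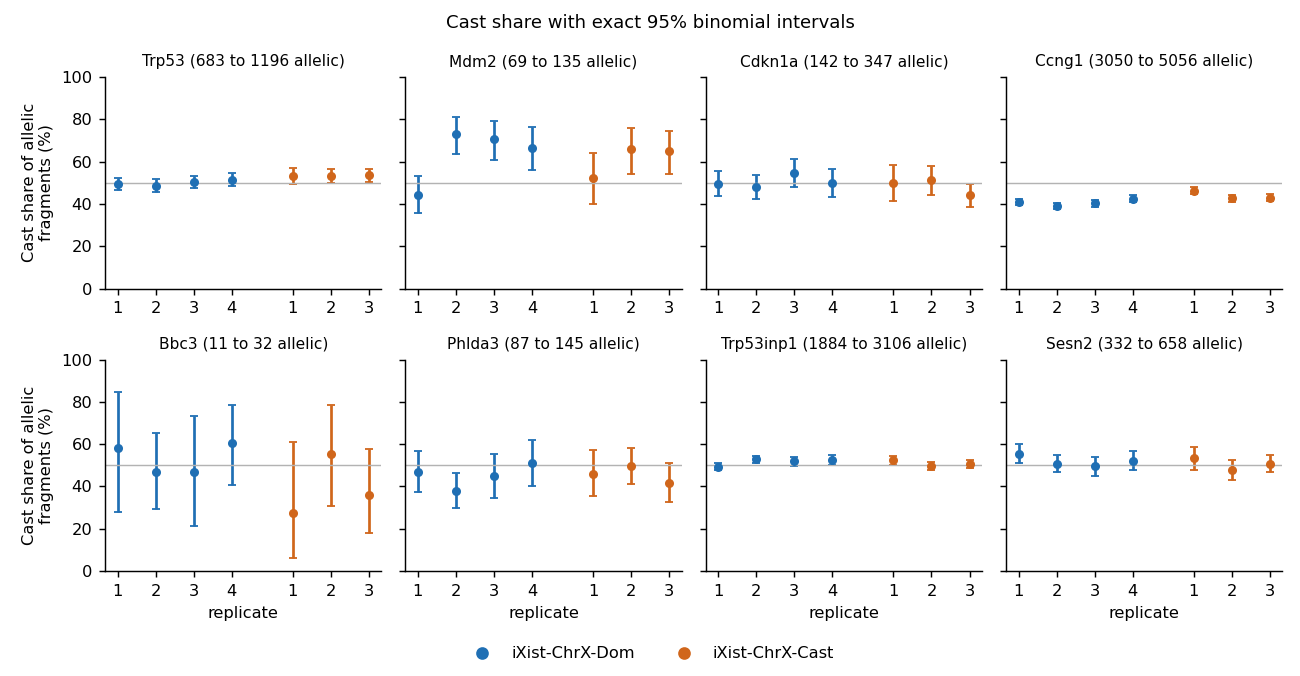
Cast share of allelic fragments in each sample (points) with its exact 95% binomial interval (bars), which covers counting error only, and a line at 50%. Ccng1 lies below 50% in all 7 samples, Trp53 is higher in all 3 iXist-ChrX-Cast samples, and Bbc3 and Mdm2, with 11 to 32 and 69 to 135 allelic fragments a sample, have wide intervals.

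The Cast shares of the other 6 genes did not separate the lines. Cdkn1a had Cast shares of 48.1% to 54.8% in iXist-ChrX-Dom and 44.1% to 51.2% in iXist-ChrX-Cast, and iXist-ChrX-Cast replicate 3, where its level was highest, had the lowest (44.1%, exact interval 38.8% to 49.5%, 347 allelic fragments). Trp53inp1 lay between 49.4% and 52.7% and Sesn2 between 47.6% and 55.5% in the 7 samples. Phlda3 lay between 37.9% and 51.1%, with 87 to 145 allelic fragments. Bbc3 ran from 27.3% to 60.7% on 11 to 32 allelic fragments, so that a difference was not detectable at this depth. Mdm2 ran from 44.4% to 73.1%: only 2.43% of its fragments were allelic, against a median of 52.0% over the tested genes, 1.58% of which had a smaller part. Replicate 1 was the lowest of each line for Mdm2 (44.4% and 52.2%), and the other samples lay between 64.8% and 73.1%.

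Within each line the ratio was set against the median of the balanced autosomes of the same sample, since slightly more fragments go to Dom throughout. In iXist-ChrX-Dom 5 of the 8 genes passed limma's test, where 54.7% of all genes did, and in iXist-ChrX-Cast the same 5 passed, where 51.5% did, so that a call here is the usual state of a gene in this cross. Ccng1 was tilted to Dom in both lines, by -0.34 (adjusted p = 1.79e-05) and -0.15 (adjusted p = 0.0279) on the log2 ratio. Trp53 was tilted to Cast, by 0.19 (adjusted p = 0.00493) and 0.39 (adjusted p = 5.17e-05), as were Trp53inp1 (0.29 and 0.24), Sesn2 (0.31 and 0.23) and Mdm2 (1.03 and 0.84). By direction these were 4 of 8 toward Cast in each line (31.5% and 27.5% of all genes) and 1 of 8 toward Dom (23.2% and 24.0%). In iXist-ChrX-Cast the limma adjusted p was 0.0453 for Sesn2 and 0.0242 for Mdm2. Of 10 alternative settings there, 5 kept the call of Sesn2, 7 that of Mdm2, 8 that of Ccng1, 9 that of Trp53inp1 and 10 that of Trp53. Against a plain 50% instead of the autosomal median, Mdm2 and Ccng1 passed in the first line and Trp53 and Ccng1 in the second. Cdkn1a, Phlda3 and Bbc3 passed in neither line.

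The surroundings of the genes were read for the same quantities. Trp53 and Ccng1 lie on chromosome 11, whose 1166 tested genes had a median log2 fold change between the lines of 0.17 and median Cast shares of 45.6% and 46.2%. Within 5 Mb of Trp53 the median log2 fold change of 140 genes was 0.08, and the median Cast shares were 44.7% (iXist-ChrX-Dom) and 47.2% (iXist-ChrX-Cast). Within 5 Mb of Ccng1 the median of 18 genes was 0.01, with shares of 42.5% and 46.1%. The shares of the neighbours thus ordered the lines as the 2 genes did, and what part the neighbourhood has in their values was not tested. Phlda3 lies on chromosome 1, whose 906 tested genes had a median of -0.15, with shares of 46.6% and 43.6%; its 90 neighbours had a median of -0.12. Median log2 fold changes around the other 5 genes lay between -0.024 and 0.064.

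The wider pathway was read from lists of genes, chosen with earlier results of these data known and therefore no independent evidence. Of 34 further p53 targets 33 could be tested, and 1 passed between the lines (2.92% of all genes did), with a median log2 fold change of -0.066 over the 33. It was Abca1, the cholesterol exporter, listed under metabolism and autophagy, at 40.1 ± 3.89 CPM (SD, n = 4) in iXist-ChrX-Dom and 76.8 ± 0.896 CPM (SD, n = 3) in iXist-ChrX-Cast, a log2 fold change of -0.94 (edgeR adjusted p = 0.00316). In the cell cycle list 0 of 10 passed, with 2 under an unadjusted p of 0.05 (17.4% of all genes were): Gadd45a, a growth arrest and DNA damage protein, had the largest value at -0.70 (adjusted p = 0.0547), and passed with the replicate block (-0.71, adjusted p = 0.00367, where 11.8% of all genes passed) and with DESeq2 (7.20% of all genes). Plk2, a stress-induced kinase, was at -0.32 (adjusted p = 0.180). In the cell death list 0 of 12 passed, with 5 under an unadjusted p of 0.05, and 1, the X-linked receptor gene Eda2r, passed with DESeq2; Fas, the death receptor, had the largest value at 0.55 (adjusted p = 0.236). The summed level of this list was 708 to 756 CPM in iXist-ChrX-Dom and 830 to 840 CPM in the other line, of which Eda2r alone made up 324 to 372 CPM and 413 to 483 CPM. In the list of DNA repair and nucleotide supply 0 of 5 passed and 0 had an unadjusted p under 0.05, with DESeq2 as with edgeR. Under metabolism and autophagy 2 of 6 had an unadjusted p under 0.05. Gls2, a glutaminase, was at 0.47 there (edgeR adjusted p = 0.178) and passed with the block (adjusted p = 0.0446). The levels of the lines did not overlap at 4 of 10 genes of the cell cycle list and 4 of 12 of the cell death list, against 16.0% of all genes. For DNA repair and nucleotide supply this held at 1 of 5, and for metabolism and autophagy at 3 of 6.

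**Figure D4:**
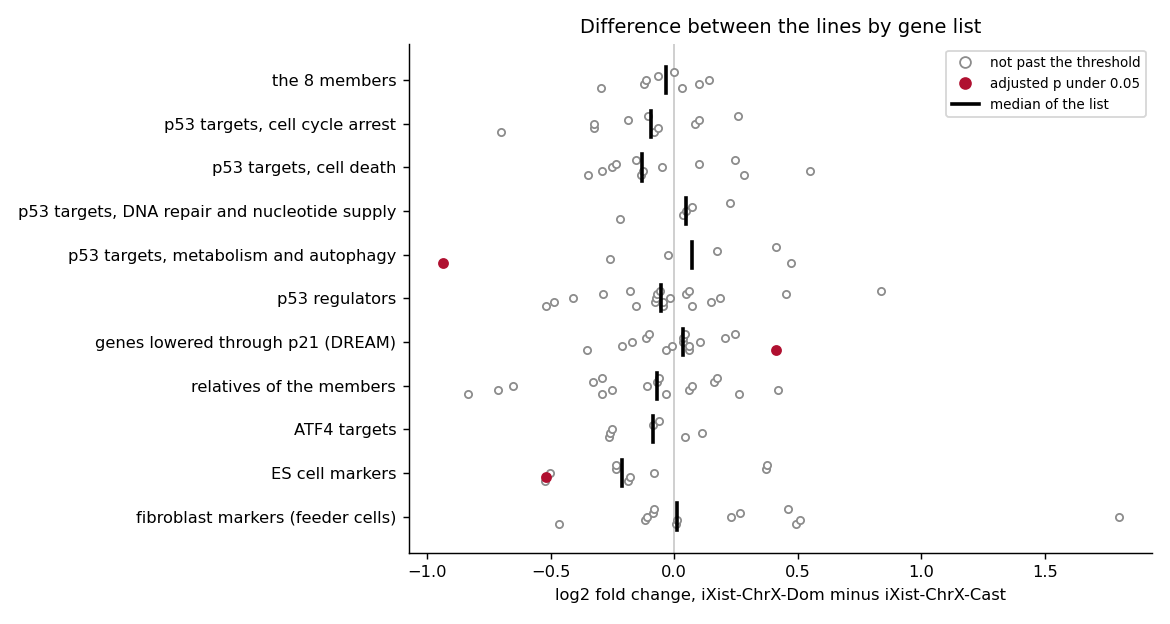
Log2 fold change between the lines for each tested gene of the 8 and of each list (points, filled where the edgeR adjusted p is under 0.05), with the median of each list (bar). Filled points are Abca1 (-0.94), Mcm5 (0.41) and Tdgf1 (-0.52), and the 8 genes span -0.30 to 0.14.

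Among 20 tested regulators of p53 none passed between the lines (2.92% of all genes did), with 5 under an unadjusted p of 0.05 (17.4%); DESeq2 called 3 (7.20%) and the replicate block 6 (11.8%). Those 6 were Cdkn2a, whose ARF product binds MDM2 (0.96, adjusted p = 0.00023), Usp10, which removes ubiquitin from p53 (0.42), the ubiquitin ligase Rchy1 (-0.41), the checkpoint kinase Chek2 (-0.39), the deacetylase Sirt1 (-0.37) and Rpl5, a ribosomal protein that binds MDM2 (-0.43). Rchy1, Chek2 and Rpl5 lie on chromosome 5, whose median log2 fold change was -0.40, and Usp10 lies on chromosome 8, with 0.35. Cdkn2a was at 11.4 ± 3.71 CPM (SD, n = 4) in iXist-ChrX-Dom and 6.42 ± 1.50 CPM (SD, n = 3) in iXist-ChrX-Cast. Mdm4, the partner of MDM2, was at 0.07 (adjusted p = 0.835).

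Genes that p21 is known to lower through the DREAM complex were measured as a list of 16. Mcm5, a subunit of the replicative helicase on chromosome 8, was higher in iXist-ChrX-Dom (log2 fold change 0.41, adjusted p = 0.0485), a call lost when scaling was taken from the balanced autosomes. The median of the list was 0.037. Of 17 tested relatives of the 8 genes none passed (2.92% of all genes did), with 4 under an unadjusted p of 0.05 (17.4% of all genes were). The replicate block (11.8% of all genes) and DESeq2 (7.20%) called Ccng2, the sister gene of Ccng1 on chromosome 5. With the block its value was -0.57 (edgeR adjusted p = 0.0131). Trp63 had the largest value (-0.83, adjusted p = 0.121) at 0.867 to 2.11 CPM. Per kilobase the relatives Trp63 (0.0061 CPM) and Trp73 (0.154) stood far below Trp53, Sesn1 (0.653) and Sesn3 (1.20) below Sesn2, and Ccng2 (1.29) below Ccng1. Of 7 targets of ATF4, which also acts on Sesn2, 0 passed with edgeR, the replicate block or DESeq2, and 1 had an unadjusted p under 0.05, Atf4 itself (-0.27, adjusted p = 0.242).

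Between the sets of replicates the lists held more calls, as all genes did (30.3%). Of the 33 further p53 targets 5 were higher in the second set and 2 lower. Those higher were Sfn (log2 fold change 0.90), Ptprv (0.67), Perp (0.63), Apaf1 (0.51) and Ei24 (0.27), and those lower were Ercc5 (-0.31) and Ckap2 (-0.25). Of the 12 genes of the cell death list 3 were higher and 0 lower, a share not above the 30.3% of all genes, and Bbc3 itself did not pass. Sfn, or 14-3-3 sigma, acts in the G2 arrest. Among regulators Chek2 (0.48), Rpl11 (0.42) and Usp10 (0.30) were higher, and Cdkn2a (-0.76), Chek1 (-0.38), Rchy1 (-0.33) and Rpl5 (-0.27) lower. In the p21 list Mybl2 (0.39) and Bub1b (0.27) were higher and E2f1 (-0.39), Ccne2 (-0.35) and Cdk1 (-0.27) lower. Of the 17 relatives 3 were higher, Bad (0.77), Bik (0.65) and Bcl2l11 (0.53), and 2 lower, Sesn3 (-0.70) and Ccng2 (-0.47). The 3 carry a BH3 domain as PUMA does, and so do Hrk (0.40), Bmf (0.17), Bid (-0.06) and Pmaip1 (-0.09), which did not pass. Of the 7 ATF4 targets 2 were higher, Ddit3 (0.82) and Trib3 (0.61), and 0 lower, a share not above that of all genes.

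Of the markers of cell identity, 3 of 10 for ES cells and 3 of 13 for fibroblasts passed between the sets, against 30.3% of all genes. Between the lines 1 of 10 ES cell markers passed (2.92% of all genes): Tdgf1 was lower in iXist-ChrX-Dom (-0.52, adjusted p = 0.0365), and Klf4 (-0.53) and Tfcp2l1 (-0.49) passed with the replicate block (11.8% of all genes). Between the sets Pou5f1 (0.50), Klf2 (0.40) and Zfp42 (0.35) were higher in the second, and of 13 tested fibroblast markers Postn (1.24) was higher and Col5a2 (-0.68) and Col3a1 (-0.67) lower. None of the fibroblast markers passed between the lines (0 of 13, also at an unadjusted p of 0.05 and with DESeq2), while Acta2, at 1.02 to 13.7 CPM, passed with the replicate block (1.57, adjusted p = 0.00572). The fibroblast markers had 8364 to 12617 allelic fragments a sample, of which 43.2% to 49.1% were Cast, beside medians of 46.3% to 46.9% over the balanced autosomes. The part of the ES cell and fibroblast markers in the values of the 8 genes was not tested. In such bulk samples fewer cells of a type and less RNA per cell cannot be told apart.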

How the data were processed

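ChrRNA-seq (stranded, paired-end) was analysed in 7 mESC samples. The authors removed ribosomal reads with Bowtie2 (2.3.2), aligned with STAR (2.4.2a) to an mm10 genome masked at the strain differences, split reads by allele with SNPsplit and counted fragments over whole transcripts on the matching strand with featureCounts, without counting fragments that overlap several genes; no other counted gene overlaps the 8. The deposited counts are raw fragments per gene, in all and by allele. The authors' allelic ratio tables hold the fraction of fragments from the inactive X and served only to check which column is which allele (246 and 399 genes equal in every sample).

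Total counts were tested with edgeR 4.0.16 (filterByExpr, TMM, quasi-likelihood test) on line, or on line and set. Allelic counts were tested with limma 3.58.1 at genes with at least 10 allelic fragments in 6 of 7 samples, with an offset of 0.5. P-values were adjusted over all genes tested by Benjamini-Hochberg, with a threshold of 0.05. DESeq2 1.42.0 was an alternative. Tested on simulated data, the edgeR test of the lines found 96% of 200 genes changed by a log2 of 1 among 15034, and 6.80% of its calls were false. On simulated allelic counts limma found 57.5% between the lines (12932 genes). The simulated counts had the same spread setting for all genes and no difference between the sets, and for edgeR only genes above 1 CPM were changed. The real samples differ between the sets, so these rates do not describe the tests of the real samples. Depth is in the report; exact intervals of shares cover counting error only. Same-numbered samples of the 2 lines deviated together (r = 0.36, 0.31 and 0.51), so that the number was used as a block in an alternative fit, although for each number a pair with other numbers correlated more: 0.44 for iXist-ChrX-Dom 1 with iXist-ChrX-Cast 2, 0.36 for 2 with 1 and 0.55 for 4 with 3.

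The 8 genes and the lists were chosen with earlier results of these data known. Genes named from the lists are those past the threshold between lines or sets, and in lists without one the 2 with the largest fold change; other listed genes named for their size, their unadjusted p, a call with the block or DESeq2, or their relation to one of the 8 were chosen after their values were seen. For Trp53 and Cdkn1a the 3 genes with the highest correlation over the samples were named. The X-linked ratios themselves were not used.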

Additional observations from a re-analysis of the deposited data

How the results depend on the processing

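None of the 8 genes passed between the lines in total counts under any of the 15 alternatives: DESeq2, RLE scaling, scaling from the balanced autosomes, no filter, a minimum of 1 CPM in 3 samples, the replicate block, the set as a covariate, replicates 1 and 2 only, and leaving out each of the 7 samples. Phlda3 had an unadjusted p under 0.05 with scaling from the balanced autosomes, with the set as a covariate and without iXist-ChrX-Cast replicate 1. Cdkn1a had one in replicates 1 and 2 only and without iXist-ChrX-Cast replicate 3. The 17.4% of all genes given for that level is from the main fit. The number of all genes called moved from 443 to 1094 with DESeq2, 1794 with the replicate block, 2398 with the set as a covariate and 1685 in replicates 1 and 2 only, and between 18 (iXist-ChrX-Cast replicate 2 left out) and 1206 (its replicate 3 left out) when a sample was dropped; each of the 7 omissions moved it by over 1.5 times. The cause was not tested. For the Cast share between the lines, 1 of the 8 (Ccng1) passed with edgeR on allelic counts and 1 with the replicate block, and 0 to 1 when a sample was left out (1 without iXist-ChrX-Dom replicate 4). Within either line 2 of the 8 passed against a share of 50%, where Trp53 in iXist-ChrX-Dom turned to -0.0044 (adjusted p = 0.947); that reference lacks the tilt to Dom of the autosomal median. Leaving out a sample gave 2 to 5 in iXist-ChrX-Cast, 2 without its replicate 3 and 3 without its replicate 2, and 5 in iXist-ChrX-Dom. Between the sets 0 to 1 passed (1, Bbc3, without iXist-ChrX-Dom replicate 2), and the number of all genes called moved from 4606 to 2739 in iXist-ChrX-Dom only, which has fewer samples, and to between 2518 (without iXist-ChrX-Cast replicate 3) and 4501 when a sample was left out, with 3053 without iXist-ChrX-Dom replicate 4. Bbc3 gave no allelic value at a minimum of 20 allelic fragments. The fewest fragments lay behind Bbc3 (28 to 89 in all, 11 to 32 allelic) and, among allelic values, behind Mdm2 next (69 to 135). The replicate block, run for the differences between the lines in total counts and in Cast share, changed no other call among the 8 there.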
